A study of Mus musculus with 6 samples.

Results

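Genes of the epidermis, the outer layer of the skin, were followed in healing bone, in 3 samples from mice labelled Cyp24a1 (-/-), here called null, and 3 from littermates labelled Cyp24a1 (+/-), here called heterozygous. Cyp24a1 encodes the enzyme that inactivates vitamin D hormones. The set held 38 genes, chosen by name as epidermal keratins, cell junction genes, cornified envelope genes and their enzymes and regulators. Of these, 35 were measured on a probe set that the array annotation assigns to a single gene, out of 18193 genes measured in that way, and each was represented by whichever of its probe sets had the highest mean (48 probe sets in all). Flg2 and Dsg3 had no probe set listed under their name, and the 3 probe sets that carry Sprr2a1 also carry other symbols, so these genes are not analysed here.

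Both groups were 12-week-old mice of a C57BL6J x 129SV mixed background. The tibia of each had been cut and stabilised with an intramedullary rod, and callus, the tissue that bridges the break, was taken on day 14. The labels do not say how the Cyp24a1 allele was made, whether each array came from a separate mouse, or whether skin was trimmed from the callus. Each RNA sample was hybridised to an Affymetrix Mouse 430_2 array, and the values below are on the log2 scale, so that a difference of 1 is a 2-fold difference.

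The epidermis is built by keratinocytes that divide in a basal layer and move outwards as they mature. Basal cells make the keratin pair Krt5 and Krt14, and cells above them switch to Krt1 and Krt10. Desmosomes join the cells, and in the outermost layers transglutaminases crosslink proline-rich and other proteins into the cornified envelope, while kallikreins help to shed dead cells. Bone, cartilage and marrow contain no epidermis, so in a callus sample these transcripts were read as a measure of skin. They do not measure skin alone. Dsp, Jup, Ppl, Perp, Cdh1, Sfn, Ly6d, Krt10, Evpl and Klk6 were treated as genes also known outside keratinocytes. Sprr1a, which injured nerve and muscle cells also make, was not put among them. In such bulk samples, fewer cells of a type and less RNA per cell cannot be told apart.

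The promoters of the cornified envelope genes are shown because their genes ranged in these samples from nearly flat (Ivl) and graded (Krtdap) to high on 3 arrays (Sprr1a) or on a single array (Sprr1b). Among the 21 genes of the set with a promoter in the RefSeq table (build GRCm38.p6), AP-1 letters (TGANTCA, either strand) were found in the 250 bases before the start of 5 genes, and 6.75% of all 32851 RefSeq promoters hold them. The TATA box letters TATAAA (either strand) were found in 6 of the 21 genes, against 12.4% of all promoters. The grainyhead letters AACNGGTT (either strand) were found in 1 of the 21, Sfn, against 1.79% of all promoters. Capitals mark AP-1 and TATA matches, which do not overlap, in the 4 measured genes with AP-1 letters, written 5′ to 3′ on the strand of the gene.
Sprr1a (chr3:92485882-92486131, minus strand): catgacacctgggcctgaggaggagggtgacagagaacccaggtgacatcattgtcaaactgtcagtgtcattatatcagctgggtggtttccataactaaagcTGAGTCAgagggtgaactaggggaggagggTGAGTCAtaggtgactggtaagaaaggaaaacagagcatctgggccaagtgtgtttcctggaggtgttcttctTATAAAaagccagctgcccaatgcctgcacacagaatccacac
Sprr1b (chr3:92438780-92439029, minus strand): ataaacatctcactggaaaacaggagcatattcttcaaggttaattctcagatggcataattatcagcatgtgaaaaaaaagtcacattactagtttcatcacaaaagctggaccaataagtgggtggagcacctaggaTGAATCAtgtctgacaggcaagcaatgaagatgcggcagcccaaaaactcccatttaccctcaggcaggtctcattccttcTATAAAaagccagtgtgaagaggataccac
Ivl (chr3:92573736-92573985, minus strand): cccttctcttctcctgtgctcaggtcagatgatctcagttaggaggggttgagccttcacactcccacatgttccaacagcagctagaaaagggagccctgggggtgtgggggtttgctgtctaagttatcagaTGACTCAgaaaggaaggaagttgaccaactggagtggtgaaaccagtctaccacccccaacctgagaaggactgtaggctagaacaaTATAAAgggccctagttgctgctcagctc
Krtdap (chr7:30787655-30787904, plus strand): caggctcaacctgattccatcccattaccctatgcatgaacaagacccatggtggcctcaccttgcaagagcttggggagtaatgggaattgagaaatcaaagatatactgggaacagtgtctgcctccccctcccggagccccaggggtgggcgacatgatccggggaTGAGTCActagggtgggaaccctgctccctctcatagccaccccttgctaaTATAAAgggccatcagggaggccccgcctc
Sprr1a holds AP-1 letters that begin 146 and 116 bases before the start, Sprr1b and Ivl hold them at 111 and 116 bases, and Krtdap at 81 bases. The TATA letters begin 43 bases before the start in Sprr1a, 30 in Sprr1b, 29 in Ivl and 30 in Krtdap. A match of letters is a description and does not show binding.

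The arrays had nearly the same distribution, with medians from 4.55 to 4.59, and Pearson's r between arrays across probe sets ran from 0.970 to 0.991. Bone and muscle transcripts were abundant on all 6 arrays, with Col1a1, the main bone collagen gene, between 13.57 and 14.28 and the muscle actin gene Acta1 between 14.39 and 14.49. Null replicate 1 and heterozygous replicate 3 were poor in marrow transcripts: the mean of 16 neutrophil genes relative to each gene's own mean was -2.57 and -3.01 there, against 1.16 to 1.72 on the other 4 arrays. Cyp24a1 itself was near background in both groups, at 3.12 to 3.65 on the null arrays and 2.71 to 3.69 on the heterozygous arrays over its 2 probe sets, so it does not check the genotype labels. Xist, the transcript of the inactive X chromosome, was high on null replicate 1 (9.51) and heterozygous replicate 1 (9.18) and at or under 3.52 on the others. The value 3.52, the highest level of Xist or Y-linked probe sets on arrays without these transcripts, was taken as a guide to the level below which a signal is not shown to be above background. On this guide, 23 of the 35 epidermal genes lay above it on all 6 arrays and 1, Grhl3, lay at or under it on all 6.

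**Figure D1:**
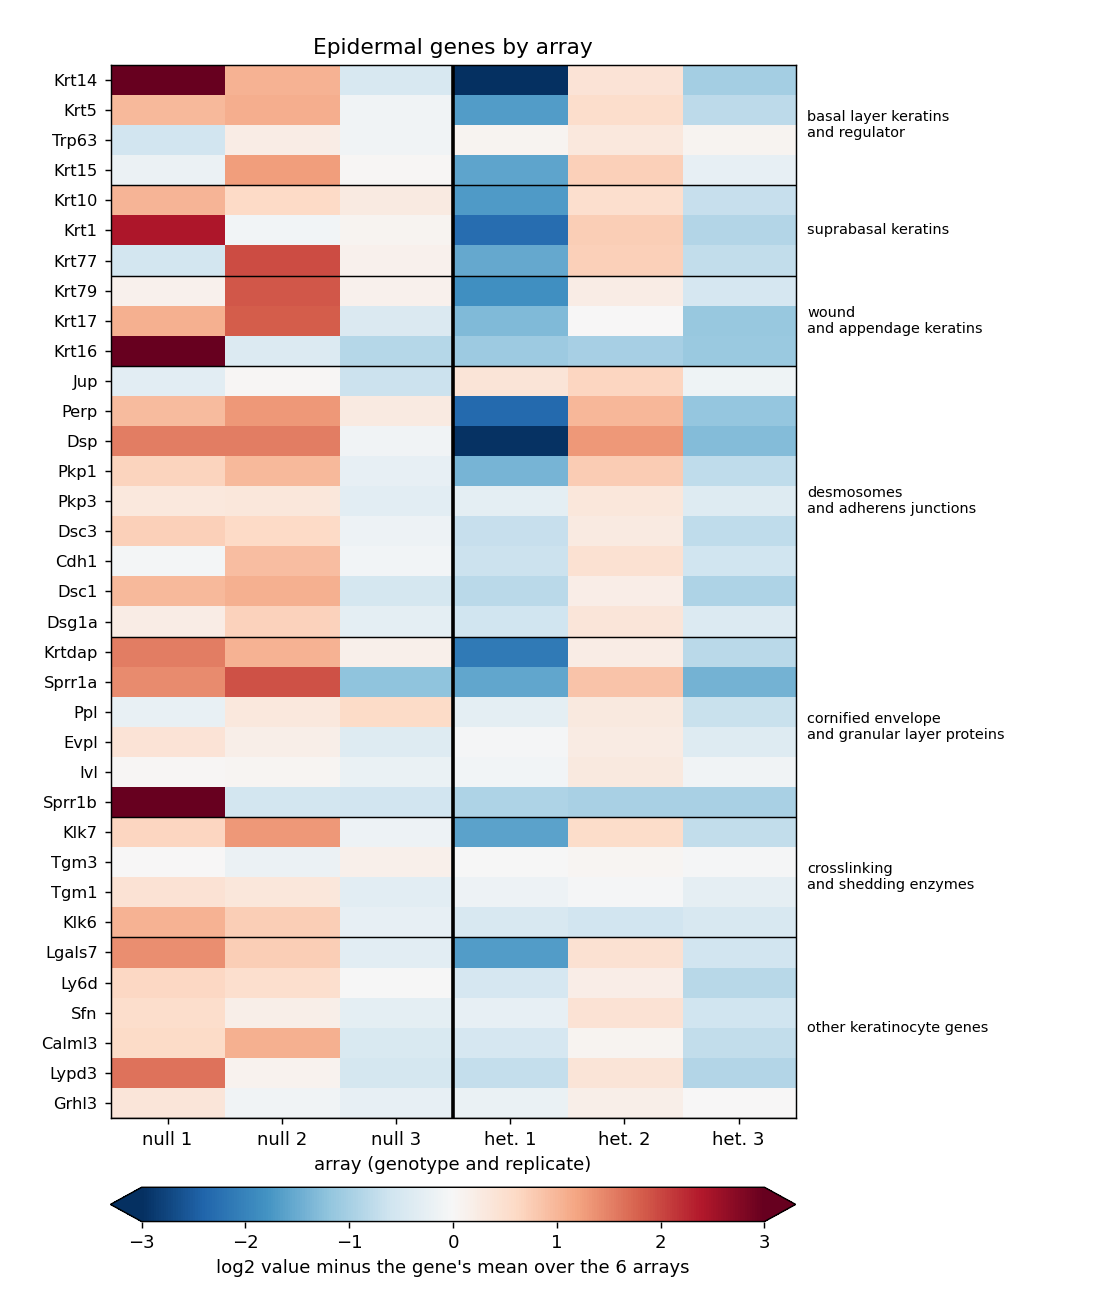
Log2 value of each of the 35 epidermal genes (rows, grouped by role) on each array (columns, null arrays left of heterozygous arrays) minus that gene's own 6-array mean, with colours saturating at 3 in either direction. The 3 redder columns are null replicates 1 and 2 and heterozygous replicate 2, and heterozygous replicate 1 is the bluest.

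Epidermal transcripts were present in callus of both genotypes and varied strongly from array to array. Averaged over the 35 genes relative to each gene's own mean, the level was 0.89, 0.70 and -0.21 on null replicates 1, 2 and 3, and -1.04, 0.32 and -0.65 on heterozygous replicates 1, 2 and 3. The null arrays averaged 0.46 ± 0.59 and the heterozygous arrays -0.46 ± 0.70 (SD, n = 3 each), and the groups overlapped, since heterozygous replicate 2 lay above null replicate 3. Null replicates 1 and 2 and heterozygous replicate 2 were the 3 highest arrays for 23 of the 35 genes (65.7%), an order held by 3.73% of all 18193 genes. Heterozygous replicates 1 and 3 were the 2 lowest arrays for 24 of the 35 genes (68.6%), against 4.71% of all genes. These array orders were chosen after the values were seen. The mean on null replicate 1 includes Krt16 and Sprr1b, which were far higher there than on any other array. Among basal layer, junction and enzyme genes, null replicate 2 had the higher mean (0.90, 0.83 and 0.55) and null replicate 1 the lower (0.82, 0.56 and 0.53). In the other role groups null replicate 1 had the higher mean.

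The spread within groups was wide for these genes. The median within-group SD was 0.82 for the 35 epidermal genes and 0.19 for all genes. From the lowest to the highest array, 18 of the 35 genes ranged over at least 2 on the log2 scale (51.4%), as did 3.20% of all genes.

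Set by genotype, 30 of the 35 genes had a higher mean in null callus, where 49.7% of all genes did, and the median null minus heterozygous difference was 0.94 (1.92-fold) for the epidermal genes and -0.0017 for all genes. A mean at least 2-fold higher in null callus was found for 17 of the 35 genes, against 0.275% of all genes, and 0 genes of the set were at least 2-fold lower, against 0.203% of all genes. The count of 17 changed with the arrays used. It rose to 22 when heterozygous replicate 2 was dropped and to 21 when null replicate 3 was. Dropping heterozygous replicate 3 gave 15, dropping null replicate 1 gave 12 and dropping null replicate 2 gave 11. Dropping heterozygous replicate 1 gave 6 (Klk6, Krt14, Krt16, Krt17, Krtdap and Sprr1b). The count was 11 when the arrays poor in marrow transcripts were left out. Among the 4 arrays low in Xist it was 3 (Krt17, Krt77 and Krt79). The share of all genes at least 2-fold higher was not counted for these settings. No gene of the set passed limma's test after Benjamini-Hochberg adjustment across the 45037 probe sets (adjusted p of at least 0.999 for each), and 0% of all probe sets passed. At an unadjusted p under 0.05, 4 of the 35 genes were higher in null callus (Klk6, Krtdap, Krt17 and Ly6d), where 2.06% of all genes were, and 1, Jup, was lower, where 2.43% of all genes were. All 3 null values lay above all 3 heterozygous values for 3 of the 35 genes (Krt16, Sprr1b and Klk6), where 4.14% of all genes had this order. They lay below for 0 of the 35, against 5.99% of all genes. An exact two-sided permutation test of 3 arrays against 3 cannot give a p below 0.1.

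The size of the difference varied with the arrays compared. Between the arrays high in Xist, null replicate 1 against heterozygous replicate 1, the median difference of the 35 genes was 1.52. Of the 35 genes, 33 were higher on the null array. This sets 1 array against 1, so the 33 genes are not separate replicates. Averaged over all genes, the level was 0.008 on null replicate 1 and 0.004 on heterozygous replicate 1. Among the 4 arrays low in Xist, replicates 2 and 3 of each group, the median difference of the 35 genes was 0.46. That of all probe sets was -0.0187, and 29 of the 35 genes were higher in null callus. Without the arrays low in marrow genes these medians were 0.51 and -0.0115, with 26 of the 35 genes higher. The share of all genes higher was not counted for these subsets. The 4 genes higher at an unadjusted p under 0.05 became 18 without heterozygous replicate 2 and 12 without null replicate 3, settings in which 1.19% and 1.11% of all probe sets were called higher, against 1.63% with all arrays. They became 1 without heterozygous replicate 1, 1 with heterozygous replicate 3 left out, 3 with null replicate 1 left out and 0 with null replicate 2 left out, where 1.23%, 2.88%, 2.41% and 2.19% of all probe sets were called higher. The part of litter, sex or dissection in these differences was not tested.

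**Figure D2:**
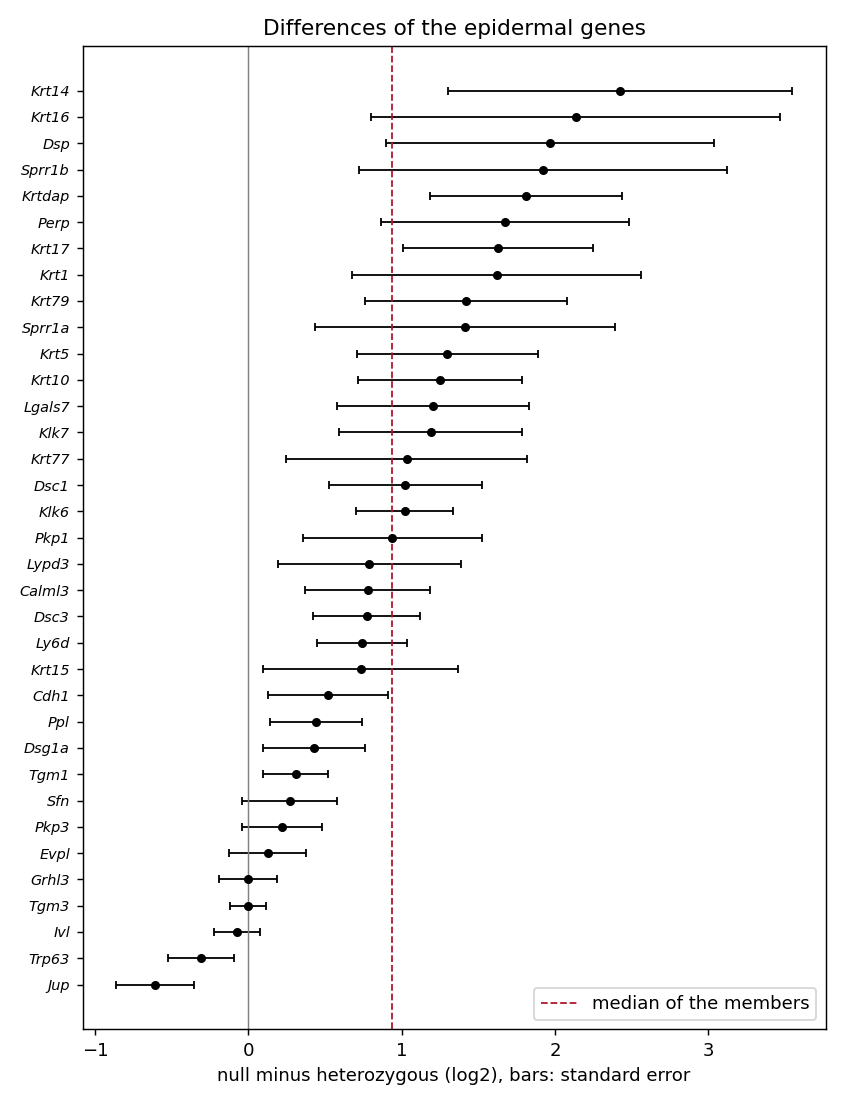
Null minus heterozygous difference (log2) of each of the 35 epidermal genes with its standard error, sorted by size, 3 arrays per group. Of the 35 points, 30 lie right of 0, and the dashed line marks the median of 0.94.

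Among the keratins of the basal layer, Krt14 had the widest range of the 35 genes. Its level was 10.33, 8.33 and 6.81 on the null arrays and 4.25, 7.68 and 6.27 on the heterozygous arrays. Null replicate 1 stood above and heterozygous replicate 1 below all others, and the groups overlapped. The difference was 2.42 (SE 1.12), or 1.5 without null replicate 1, 1.51 with heterozygous replicate 1 left out and 0.59 when both were. Another probe set of Krt14 had the same array order at its extremes, at 9.06, 6.89 and 5.64 on the null arrays and 4.17, 6.37 and 4.65 on the heterozygous arrays, and the remaining one stayed between 2.81 and 3.02.

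Krt5, the partner of Krt14, lay at 7.68, 7.80 and 6.61 on the null arrays and at 5.03, 7.24 and 5.92 on the heterozygous arrays. Null replicates 1 and 2 and heterozygous replicate 2 were again highest, with no null array outstanding. Krt15, a keratin of basal cells and hair follicle stem cells, ranged from 3.95 on heterozygous replicate 1 to 6.78 on null replicate 2. Trp63, which encodes the p63 transcription factor needed to form stratified epithelia, did not share this order. It lay at 5.66, 6.47 and 6.14 on the null arrays and at 6.32, 6.56 and 6.32 on the heterozygous arrays, a difference of -0.31 (SE 0.21) with the same sign on all 4 of its probe sets. Without null replicate 1 it was -0.094, and without null replicate 2 it was -0.50. The probe sets of Trp63 were unlike in pattern. The one with the largest difference, -0.96 (SE 0.42), was highest on heterozygous replicate 1 (6.91) and lowest on null replicate 3 (4.77). Averaged over its probe sets, the difference of Trp63 was -0.46.

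The 3 keratins of the layers above were all lowest on heterozygous replicate 1, but only Krt10 had null replicates 1 and 2 and heterozygous replicate 2 as its highest arrays. Krt10 was at 8.70, 8.28 and 7.96 on the null arrays and 5.99, 8.20 and 7.0 on the heterozygous arrays, so that only heterozygous replicate 2 reached into the null range. Its difference was 1.25 (SE 0.54), or 0.71 without heterozygous replicate 1. Krt1, the partner of Krt10, was at 8.74, 6.24 and 6.38 on the null arrays and 4.02, 7.05 and 5.43 on the heterozygous arrays, and the groups overlapped. Its difference of 1.62 (SE 0.94) was 0.067 among the 4 arrays low in Xist. Krt77, a keratin of the layers above the basal layer and of sweat gland ducts, was highest on null replicate 2 (7.50) and lowest on heterozygous replicate 1 (4.01).

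The keratins of wounds and skin appendages did not all share an order. Krt17, made in hair follicles and in wounded or inflamed skin, was at 5.59, 6.32 and 4.08 on the null arrays and 3.19, 4.54 and 3.37 on the heterozygous arrays. It overlapped through heterozygous replicate 2 and differed by 1.63 (SE 0.62), with heterozygous replicates 1 and 3 under the guide. The other probe set of Krt17 stayed between 2.24 and 2.49, under the guide on all arrays, with a difference of -0.051. Averaged over both probe sets, the difference of Krt17 was 0.79. Krt79, found in the funnel and ducts of the hair follicle, was at 5.67, 7.40 and 5.68 on the null arrays and 3.71, 5.76 and 5.03 on the heterozygous arrays, with overlap. Krt16, a keratin switched on in wounded and overgrowing epidermis, stood out on a single array.

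Krt16 was at 8.57 on null replicate 1, at 3.71 and 3.27 on the other null arrays and at 3.04, 3.11 and 3.00 on the heterozygous arrays. Null replicate 1 lay 29.2-fold above the next highest array. The group means were 5.18 ± 2.94 in null and 3.05 ± 0.06 in heterozygous callus (SD, n = 3 each). All 3 heterozygous values lay under the guide of 3.52, which gives a null mean at least 3.16-fold higher. This rests on null replicate 1, since null replicate 2 alone of the other arrays lay above the guide and no fold is given without it. The Krt14, Krt16 and Krt17 genes are close in sequence, so their probe sets may share signal.

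**Figure D3:**
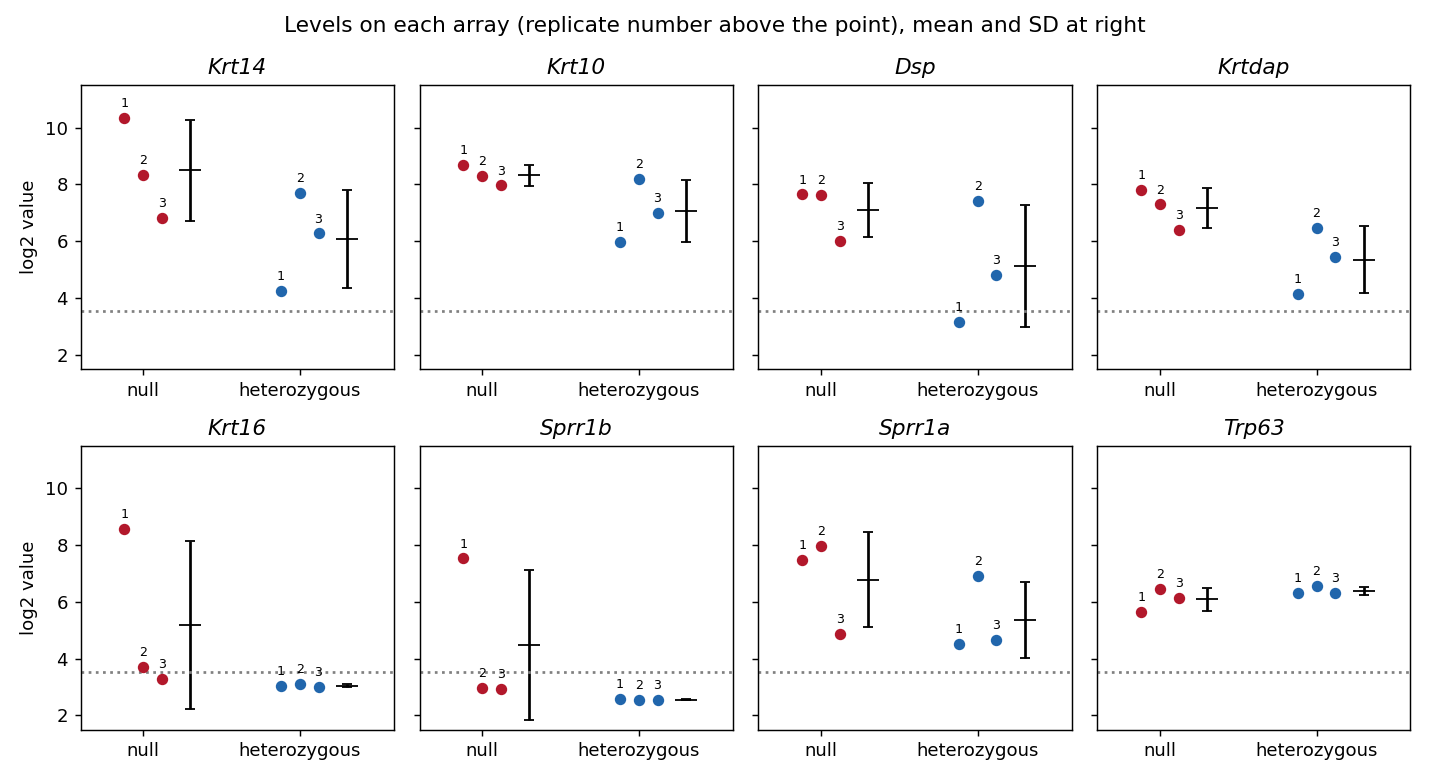
Log2 level of 8 genes on each array (points, with the replicate number above), null left of heterozygous, with the group mean and SD (n = 3) beside the points and the guide of 3.52 as a dotted line. On the probe sets shown, Krt14, Krt10, Dsp and Krtdap were lowest on heterozygous replicate 1, and Trp63 stayed between 5.66 and 6.56. Krt16 and Sprr1b were high on null replicate 1 alone.

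Among the 9 measured junction genes, 8 had a higher mean in null callus and Jup a lower one, with a median difference of 0.77. Perp, a desmosome protein that p63 controls, was at 7.08, 7.41 and 6.39 on the null arrays and 3.78, 7.12 and 4.96 on the heterozygous arrays. Dsp, which encodes desmoplakin, the link between desmosomes and keratin filaments, was at 7.65, 7.64 and 6.01 on the null arrays and 3.14, 7.43 and 4.82 on the heterozygous arrays. On these probe sets of both genes, heterozygous replicate 2 lay within the null range and the other heterozygous arrays below it. The differences were 1.67 (SE 0.81) for Perp and 1.97 (SE 1.07) for Dsp, and without heterozygous replicate 1 they were 0.92 and 0.97. On another probe set of Dsp, heterozygous replicate 2 was the highest array (7.41), above null replicate 2 (7.28), and the difference was 1.43 (SE 0.95). The remaining Dsp probe set, between 2.51 and 3.12, lay under the guide on all arrays. Averaged over its probe sets, the difference of Dsp was 1.16.

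Pkp1, a plakophilin of the desmosomal plaque, ranged from 4.44 to 6.82 with the same 3 arrays highest. Its relative Pkp3, at 4.92 to 5.66, differed by 0.22 (SE 0.26). The desmosomal cadherins Dsc1, Dsc3 and Dsg1a were low. Dsc1 and Dsc3 differed by 1.02 (SE 0.50) and 0.77 (SE 0.35). Heterozygous replicates 1 and 3 lay under the guide in both genes, as did null replicate 3 in Dsc1. Averaged with their other probe sets, the differences of Dsc1 and Dsc3 were 0.56 and 0.40. Dsg1a was at or under the guide on 5 of 6 arrays, which allows no fold. Cdh1, which encodes E-cadherin of epithelial adherens junctions, was between 3.08 and 4.63.

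Jup, which encodes plakoglobin, is used in heart and other tissues besides skin. It was at 8.51, 8.86 and 8.17 on the null arrays and 9.21, 9.47 and 8.69 on the heterozygous arrays. The groups overlapped, because null replicate 2 lay above heterozygous replicate 3. The difference was -0.61 (SE 0.25), and it stayed between -0.82 and -0.44 when any single array was left out.

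Of the 6 measured genes of the cornified envelope and granular layer, 5 had a higher mean in null callus. Krtdap, which encodes a small secreted protein of maturing keratinocytes, was at 7.80, 7.29 and 6.40 on the null arrays and 4.14, 6.48 and 5.45 on the heterozygous arrays. The groups overlapped by the narrow margin between null replicate 3 and heterozygous replicate 2, and the difference was 1.81 (SE 0.63), 3.51-fold, or 0.89 among the 4 arrays low in Xist. Sprr1a, a small proline-rich envelope protein also made by injured nerve and muscle cells, was at 7.48, 7.98 and 4.87 on the null arrays and 4.51, 6.92 and 4.65 on the heterozygous arrays. The level was thus high on 3 arrays and low on 3, across both genotypes.

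Sprr1b, which encodes a similar protein and also lies on chromosome 3, had another pattern. It was at 7.53 on null replicate 1, at 2.97 and 2.95 on the other null arrays and at 2.59, 2.54 and 2.56 on the heterozygous arrays. The 5 other arrays lay under the guide of 3.52, and null replicate 1 was at least 16.1-fold above it. The group means were 4.48 ± 2.64 in null and 2.56 ± 0.02 in heterozygous callus (SD, n = 3 each), at least 1.94-fold higher in null against the guide, which rests on null replicate 1: without it no value was above the guide and no fold is given. Null replicate 2 and heterozygous replicate 2, where Sprr1a was high, showed no Sprr1b above the guide.

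Ivl, which encodes involucrin, an early scaffold of the envelope, was nearly flat, between 3.84 and 4.33. Its other probe set, between 2.76 and 3.86, had a higher mean in null callus, so the sign for Ivl depends on the probe set. Evpl and Ppl, the envoplakin and periplakin genes, ranged from 4.33 to 5.13 and from 4.19 to 5.43, with differences of 0.13 (SE 0.25) and 0.44 (SE 0.30). The AP-1 letters shown above thus stood before genes as unlike in level across arrays as Ivl, Sprr1a and Sprr1b.

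Of the 4 enzymes, 3 had a higher mean in null callus, with a median difference of 0.66. Klk7, a protease that cuts desmosomes during shedding, was at 6.22, 6.89 and 5.43 on the null arrays and 3.98, 6.13 and 4.86 on the heterozygous arrays, a difference of 1.19 (SE 0.60) with overlap, or 0.68 without heterozygous replicate 1. Klk6, a kallikrein of skin and also of nervous tissue, was at 5.09, 4.80 and 3.81 on the null arrays and 3.57, 3.49 and 3.59 on the heterozygous arrays. The groups did not overlap, the heterozygous values lay close to the guide of 3.52, and the difference was 1.02 (SE 0.32), 0.76 without null replicate 1. Tgm3, a transglutaminase of epidermis and hair, was at 4.72, 4.52 and 4.84 on the null arrays and 4.68, 4.75 and 4.67 on the heterozygous arrays, a difference of -0.005 (SE 0.12). Tgm1, the membrane-bound transglutaminase of keratinocytes, differed by 0.31 (SE 0.21).

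Of the other keratinocyte genes, Lgals7, the galectin of stratified epithelia, was at 7.23, 6.58 and 5.54 on the null arrays and 4.17, 6.30 and 5.27 on the heterozygous arrays, with overlap. Ly6d, a surface protein of keratinocytes and of B cell precursors, was at 6.45, 6.34 and 5.83 on the null arrays and 5.34, 6.04 and 5.01 on the heterozygous arrays, a difference of 0.74 (SE 0.295). Heterozygous replicate 2 lay within its null range. Among early B cell genes, Cd79a, a part of the B cell receptor, was at 5.43, 7.16 and 6.00 on the null arrays and 5.96, 6.28 and 5.10 on the heterozygous arrays, and the 13 genes measured had a median range over arrays of 0.68. The part of B cell precursors in the level of Ly6d was not tested. Lypd3, a surface protein raised in migrating keratinocytes, was highest on null replicate 1 (5.30), 2.34-fold above the next array, and Calml3, a calmodulin-like protein of epithelia, on null replicate 2 (5.16). Sfn, the 14-3-3 sigma gene, differed by 0.27 (SE 0.31), and Grhl3, a grainyhead factor of the skin barrier, showed no value above the guide.

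A further 84 epidermal genes were sought to describe the pattern beyond the set, and 76 were measured. They were chosen with earlier results of these data known and read on the same 6 arrays, so they are not an independent check. Of the 76 measured, 59 (77.6%) had a higher mean in null callus, against 49.7% of all genes, and 0 passed limma's test. At an unadjusted p under 0.05, 8 were higher and 1 lower, where 2.06% and 2.43% of all genes were. Their median difference was 0.21, and 21 of the 76 (27.6%) lay at or under the guide on all arrays, as did 21.9% of all genes. Null replicates 1 and 2 and heterozygous replicate 2 were the 3 highest arrays for 34 of the 76 (44.7%). Sbsn, a secreted protein of the upper epidermis, was at 8.61, 8.19 and 7.90 on the null arrays and 6.58, 8.15 and 7.28 on the heterozygous arrays. Cst6, the cystatin of skin and other epithelia, did not share the order, at 6.49, 8.36 and 6.82 on the null arrays and 8.57, 8.71 and 6.47 on the heterozygous arrays.

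Some of these genes, named here after their values were seen, also had null replicate 1 far above the other arrays. Krt6a and Krt6b encode near-identical keratins that pair with Krt16 in wounded skin, so their probe sets may share signal. Krt6a was at 10.20, 6.39 and 5.32 on the null arrays and 3.87, 4.48 and 4.22 on the heterozygous arrays. Krt6b was at 11.28, 6.40 and 5.33 on the null arrays and 3.19, 3.44 and 4.20 on the heterozygous arrays. In both genes all null values lay above all heterozygous values, so that null replicates 2 and 3 were also higher than the heterozygous arrays. Heterozygous replicates 1 and 2 of Krt6b lay under the guide. Of the 76 genes, 7 had all null values above all heterozygous values and 2 had them below, where 4.14% and 5.99% of all genes did. Sprr2d and Sprr2h, other small proline-rich genes, were at 6.85 and 5.18 on null replicate 1 and between 2.87 and 3.87 on the other 5 arrays. A level on null replicate 1 at least 2-fold above each other array was found for 5 of the 35 genes of the set (14.3%) and for 0.302% of all genes.

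Hair follicle genes gave a different order of arrays from the epidermal set. Of 32 measured genes of the hair shaft, inner root sheath and sebaceous gland, 28 were highest on null replicate 2 and heterozygous replicate 2 (87.5%). The same held for 10 of the 35 epidermal genes (28.6%) and 8.42% of all genes. This pair of arrays was chosen after the values were seen. The mean level of the hair genes was -0.48, 0.99 and -0.72 on the null arrays and -0.78, 1.42 and -0.43 on the heterozygous arrays. Krt71, a keratin of the inner root sheath, was at 5.55, 7.89 and 4.17 on the null arrays and 4.38, 7.87 and 5.23 on the heterozygous arrays, a difference of 0.043 (SE 1.19). Krtap8-1, a hair shaft protein named after its values were seen, was at 3.68, 8.24 and 3.22 on the null arrays and 3.18, 9.13 and 4.51 on the heterozygous arrays. Null replicate 1, which had the highest mean of the epidermal set but not of each of its role groups, was thus not high in hair genes. Of the 32 hair genes, 23 had a lower mean in null callus and 9 (28.1%) a higher one, where 49.7% of all genes were higher. Their median difference was -0.17, with a median SE of 0.72. The list mean was -0.07 ± 0.93 on the null arrays and 0.07 ± 1.18 on the heterozygous arrays (SD, n = 3 each).

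**Figure D4:**
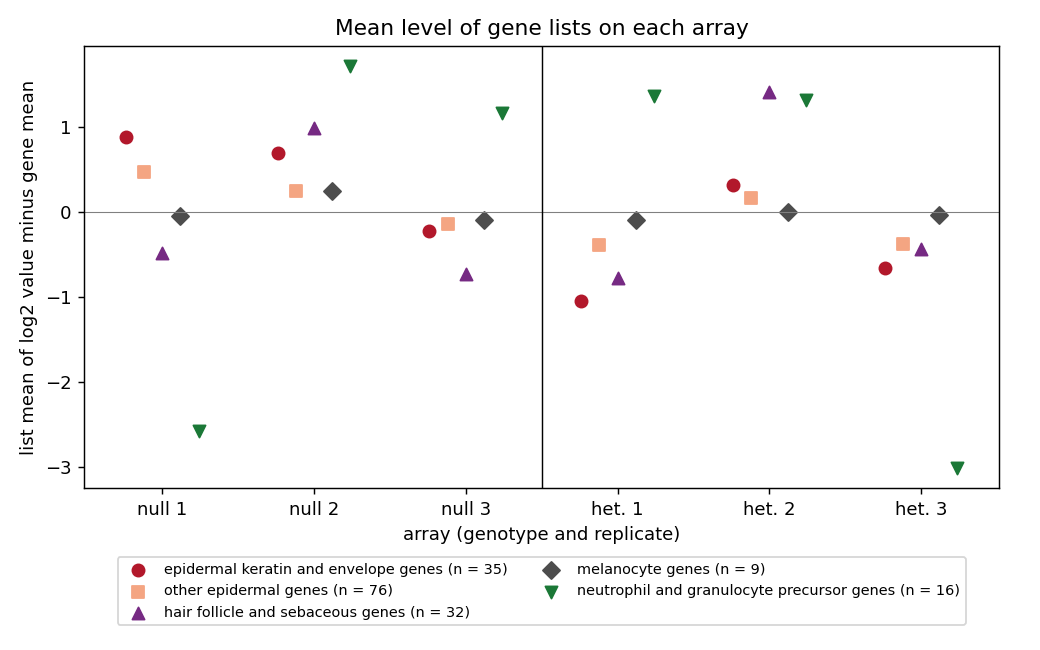
Mean level of 5 gene lists on each array, each gene set against its own mean of the 6 arrays (log2), null arrays left of heterozygous arrays. The epidermal set was highest on null replicate 1 (0.89), the hair follicle list on heterozygous replicate 2 (1.42), and the neutrophil list was low on null replicate 1 (-2.57) and heterozygous replicate 3 (-3.01).

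Markers of other skin cells were measured beside these. Of 9 pigment cell genes, 5 lay at or under the guide on all arrays, Tyr and Dct among them, and the list mean stayed between -0.09 and 0.25 on the null arrays and between -0.09 and 0.00 on the heterozygous arrays. Cd207, the defining gene of the Langerhans cell, was between 2.87 and 3.22, under the guide. Of the 5 measured genes of Langerhans cells and dendritic epidermal T cells, Xcl1 was also under it on all arrays, while Epcam, Cd1d1 and Cd3g, which other cells also make, lay above it on at least 4 arrays. Krt8 and Krt18, keratins of simple epithelia, did not follow the epidermal order, with Krt8 at 8.02, 7.61 and 6.79 on the null arrays and 10.27, 10.21 and 9.94 on the heterozygous arrays. The mean of 11 osteoblast genes lay at -0.31 to 0.08 on the null arrays and -0.03 to 0.21 on the heterozygous arrays.

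In the genome, many genes of the set lie together in families. The type I keratins Krt10, Krt14, Krt15, Krt16 and Krt17 lie on chromosome 11, the type II keratins Krt1, Krt5, Krt77 and Krt79 on chromosome 15, the small proline-rich genes and Ivl on chromosome 3, and the desmosomal cadherins on chromosome 18. The median difference was 1.25 for the 7 genes of the set on chromosome 11, 1.30 for the 5 on chromosome 15 and 1.10 for the 6 on chromosome 7, where Krtdap, Lgals7, Klk6 and Klk7 lie. Genes of a family still differed in pattern, as Sprr1a and Sprr1b did.

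**Figure D5:**
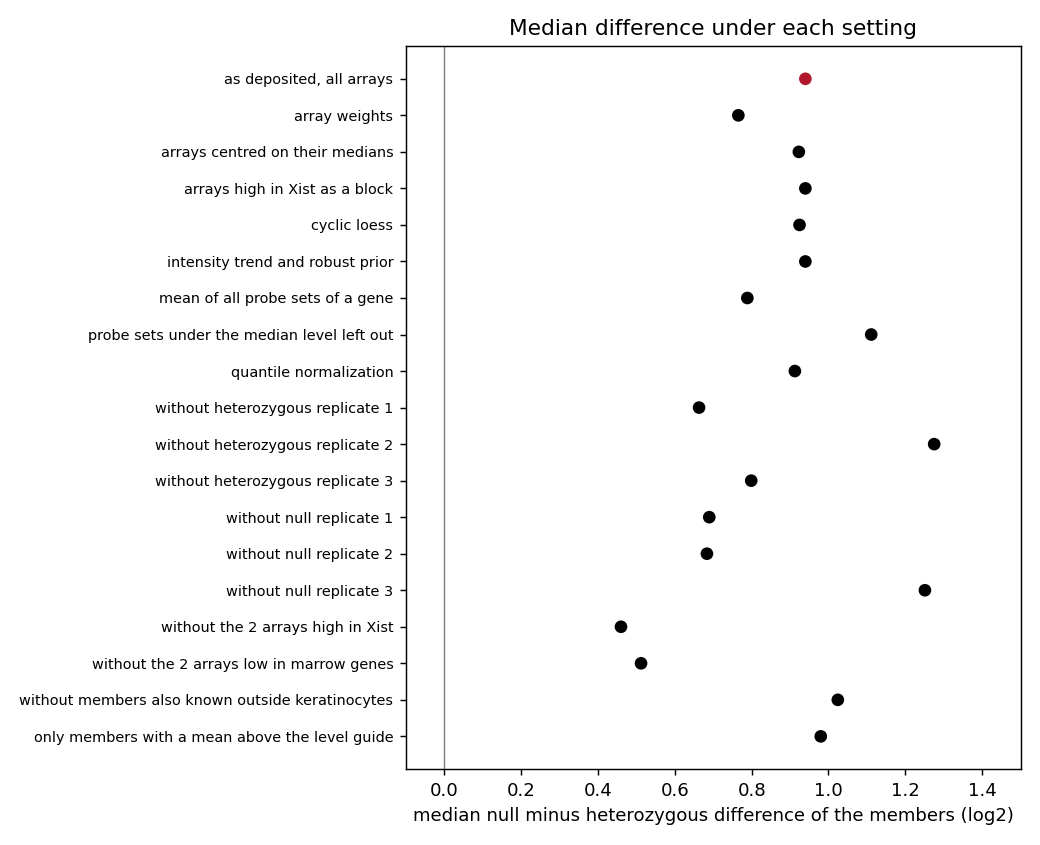
Median null minus heterozygous difference (log2) of the epidermal genes under each setting, with the deposited values of all arrays in red at the top. The median stayed above 0 in all settings shown and was lowest, at 0.46, without the arrays high in Xist.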

How the data were processed

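Total RNA of callus was measured on Affymetrix Mouse 430_2 arrays, per the labels' protocols. The deposited table holds 1 value per probe set and array, taken from its range to be log2. Background correction, summarisation and normalisation were not stated in the labels. Equalised columns remove shifts of all genes together, and low values are compressed.

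Of 45101 probe sets, 64 controls were left out. In the platform annotation 34945 probe sets have 1 symbol, 932 several and 9160 none. All 45037 were tested with limma 3.58.1 in R 4.3.3 (lmFit, eBayes, null minus heterozygous, two-sided, no filter, Benjamini-Hochberg, threshold 0.05), with 4 residual degrees of freedom and a prior of 2.50. The script was tested on simulated data. Arrays limit the precision, and p-values measure only the spread between these samples, which may be technical.

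The members, lists and motifs were chosen with earlier results of these data known. By rule, per-array values are given for the 2 genes with the highest mean and the gene with the lowest p in each role, and for genes without overlap. From other lists at most the 3 highest and the 2 with the lowest p are named. Dsp, Trp63, Lypd3, Krt6a, Krt6b, Sprr2d, Sprr2h, Krtap8-1, Tyr, Dct, Cd207, Xcl1, Epcam and genes given by range were added after values were seen. Alternatives were other normalisations, array weights, a trend prior, a level filter, averaged probe sets, smaller gene sets, a threshold of 0.01 and left-out arrays. The Xist settings were added after seeing the data.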

Additional observations from a re-analysis of the deposited data

How the results depend on the processing

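The median difference of the epidermal genes stayed positive in all settings run, between 0.46 and 1.28, and no gene of the set and no probe set passed limma's adjusted test in any. The number of genes at an unadjusted p under 0.05 did depend on the setting. Against 4 higher in null callus, it was 9 with array weights, where the share of all probe sets called higher was also larger (4.55% against 1.63%). It was 2 with probe sets under the median level left out (22 genes measured, 1.54% of probe sets called higher). Without genes also known outside keratinocytes it was 2 of 25 genes, with Klk6 and Ly6d among those left out. It was 1 without the arrays low in marrow genes (3.70%), 1 without the arrays high in Xist (2.11%), and 0 at a threshold of 0.01. It ran from 0 to 18 when single arrays were left out. Against 1 lower, where 2.06% of all probe sets were, it was 0 with cyclic loess (1.85%) and with the level filter (1.77%). With arrays high in Xist as a block (1.54%) or left out (1.97%) it was 0. The same held without genes also known outside keratinocytes (25 genes measured) and at 0.01. When single arrays were left out it ran from 0 to 2, where 1.13% to 3.16% of all probe sets were called lower.

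Of 547 gene differences recomputed, 20 changed sign, in 7 genes with small differences or low levels. With array weights Evpl was -0.093 and Tgm3 0.043. Grhl3 was 0.021 with cyclic loess and 0.024 with quantile normalisation, and Ivl was 0.20 with its probe sets averaged. Evpl was -0.035 without the arrays high in Xist. Without the arrays low in marrow genes, Pkp3 was -0.026, Evpl -0.21, Sfn -0.15 and Lypd3 -0.060. With single arrays left out, Evpl ran from -0.048 to 0.35, Tgm3 from -0.080 to 0.081, Grhl3 from -0.18 to 0.13 and Ivl from -0.14 to 0.053. Apart from the smaller gene sets and the stricter threshold, which leave fewer calls by construction, the cause was not tested. Pseudocounts, planned for linear values, were not run. No paired analysis was possible because the series title calls the heterozygous samples littermates without saying which sample shares a litter with which, and the labels give no replicate numbers.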

Other observations

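Cytokine, defensin and growth factor genes that keratinocytes are known to express, as other cells also do, were looked at beside the epidermal set. Of 26 sought, 19 were measured, and 16 (84.2%) had a higher mean in null callus, against 85.7% of the epidermal set and 49.7% of all genes. The median difference was 0.12, against 0.94 for the epidermal set, and 0 passed limma's test, also 0 at an unadjusted p under 0.05. Of the 19, 6 (31.6%) lay at or under the guide on all arrays, as did 21.9% of all genes. The list mean was -0.017, 0.16 and 0.093 on the null arrays and -0.005, 0.049 and -0.28 on the heterozygous arrays. It thus did not follow the array order of the epidermal set, which was at 0.89 on null replicate 1 and -1.04 on heterozygous replicate 1. Il33, an alarmin of barrier tissues, was at 7.83, 6.91 and 7.43 on the null arrays and 7.52, 6.83 and 7.43 on the heterozygous arrays. Hbegf, a growth factor for keratinocyte migration, was between 8.01 and 8.32 on the null arrays and between 7.82 and 8.49 on the heterozygous arrays. Lcn2, which neutrophils also make, followed the neutrophil list, at 7.71, 11.39 and 11.08 on the null arrays and 11.05, 11.06 and 6.55 on the heterozygous arrays.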
